A study of Homo sapiens with 2 samples.

Results

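The genes examined here encode the 3 E proteins TCF3, TCF4 and TCF12 and the 4 ID proteins ID1, ID2, ID3 and ID4, and the data are the TCF3::HLF-HiChIP interactions that touch them. An interaction was assigned to a gene when at least 1 of its 5-kb bins overlapped the gene body (GENCODE release 44, hg38) or the 10 kb on either side, and interactions that passed over TCF3 with a bin on each side were counted as well. This rule found 83 of the 49245 interactions in the list. Of these, 76 had a bin in a gene window and 7 spanned TCF3. HiChIP joins immunoprecipitation of a chromatin protein with proximity ligation, so that each read pair across a ligation junction links a pair of DNA segments that were close together in the nucleus.

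The study used HAL-01, a leukemia cell line that carries t(17;19) and expresses the TCF3::HLF fusion. The cells stably expressed Cas9GFP and had lost wild-type TCF3 (wt-TCF3 KO), and chromatin was pulled down with an E2A antibody that recognizes the TCF3 part of the fusion protein. The TCF3-KO line was grown out from a limiting dilution after lentiviral delivery of the guide, so it stands for 1 edited derivative of 1 cell line. Both replicates belonged to this single condition and were merged before interactions were called, so that no value below has a replicate error, no comparison between conditions exists, and no test was made.

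E proteins are basic helix-loop-helix transcription factors that bind E-box sequences as dimers, either with each other or with tissue-restricted class II partners such as TAL1 and LYL1. ID proteins share the dimerization region but lack the basic region that contacts DNA, so an E protein paired with an ID protein cannot bind its E-box. The balance between the families sets early decisions in lymphoid development, TCF3 being needed for commitment to the B cell lineage and ID2 for innate lymphoid and natural killer cells. In TCF3::HLF the activation domains of TCF3 are joined to the basic leucine zipper of HLF, and the fusion protein recognizes the HLF motif in place of the E-box.

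Each interaction comes with its contact count, that is, how many read pairs joined the pair of bins, and this count is the depth behind every value. Counts over the whole list added up to 1268490, with a median of 24 (range, 7 to 615), for which an exact Poisson 95% interval runs from 15.4 to 35.7. Intervals in parentheses after a contact count are of this kind. They take in counting error alone and understate the true error, because duplicate read pairs stayed in the data. The list gives no expression values, so neither the knockout nor the identity of the cells could be checked in it. It holds 0 interactions between chromosomes, so contacts across the t(17;19) junction are outside what it can show.

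The sequences printed below are HLF motifs from selected bins of TCF4 and TCF12 and the motifs in the bins of ID2 and ID3. Not all bins with many interactions hold a motif. A bin upstream of TCF4 with 12 of its interactions and the bin past the 3′ end of TCF12 with 7 hold 0. A motif here means TTACGTAA or TTATGTAA, matched letter by letter on both strands. They are shown in capitals, 5′ to 3′ on the strand of the motif, within 60 bases of the hg38 reference. The labels describe the 60 bases as a whole, so the coding exon of TCF4 may overlap the flanking bases and not the motif. The first 3 come from adjacent bins inside TCF4 and the next pair from a bin just upstream of it. The 5′ bin of TCF12 and the intronic TCF12 site with TTACGTAA follow.
TCF4 intron, chr18:55517939-55517998, plus strand: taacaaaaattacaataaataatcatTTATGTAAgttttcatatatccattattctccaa
TCF4 intron, chr18:55519051-55519110, minus strand: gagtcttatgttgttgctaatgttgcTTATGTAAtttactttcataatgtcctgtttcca
overlapping a TCF4 coding exon, chr18:55510537-55510596, minus strand: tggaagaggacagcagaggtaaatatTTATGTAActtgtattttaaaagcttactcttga
upstream of TCF4, chr18:55680449-55680508, plus strand: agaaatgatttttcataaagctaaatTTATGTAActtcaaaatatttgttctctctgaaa
upstream of TCF4, chr18:55681009-55681068, minus strand: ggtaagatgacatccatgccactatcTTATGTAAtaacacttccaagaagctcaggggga
TCF12 intron, chr15:56922952-56923011, plus strand: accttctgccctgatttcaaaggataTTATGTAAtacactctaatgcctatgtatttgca
TCF12 intron, chr15:56991126-56991185, plus strand: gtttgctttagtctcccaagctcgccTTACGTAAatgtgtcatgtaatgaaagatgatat
ID2 upstream, chr2:8677762-8677821, plus strand: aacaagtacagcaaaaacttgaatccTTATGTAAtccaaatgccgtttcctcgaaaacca
ID3 distal bin, chr1:23378443-23378502, minus strand: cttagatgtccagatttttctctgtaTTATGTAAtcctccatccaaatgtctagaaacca
ID3 distal bin in CNR2 intron, chr1:23909487-23909546, minus strand: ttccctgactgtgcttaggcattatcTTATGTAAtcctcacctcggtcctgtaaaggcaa
wild-type TCF3 guide, chr19:1615330-1615349, plus strand: gcaggatgagcagtttggtc

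The guide sequence matched the reference in exon 18 of 19 of the canonical TCF3 transcript and was followed there by TGG. A match to the motif is a description of the sequence and does not show that the fusion protein bound it.

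The 7 genes differed widely in how many interactions they had. TCF4 had 45, TCF12 24, ID2 3, ID3 2, ID1 and ID4 1 each, and TCF3 0. Among 19962 protein-coding genes, 64.5% had at least 1 interaction in the same kind of window and 10.1% had at least 10, so TCF4 and TCF12 were in the upper group and the other 5 genes were not. By number of interactions TCF4 ranked 94 and TCF12 ranked 417 among all protein-coding genes. Long genes offer more bins, and the E protein genes with many interactions were also the longest of the 7. Among 372 genes with a window within 20% of the length of TCF4 (443 kb of gene body), the median was 8 interactions (interquartile range, 4 to 19; highest, 109), and TCF4 ranked 26. Among 436 genes like TCF12 in length (381 kb), the median was 8.5 and TCF12 ranked 73. Per 100 kb of window, TCF4 had 9.73 interactions, TCF12 5.99, ID2 11.7, ID3 9.27, ID1 4.71 and ID4 4.03, so the order by density was not the order by number. The ID densities rest on 3 interactions or fewer per gene, in windows that are mostly flank.

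**Figure D1:**
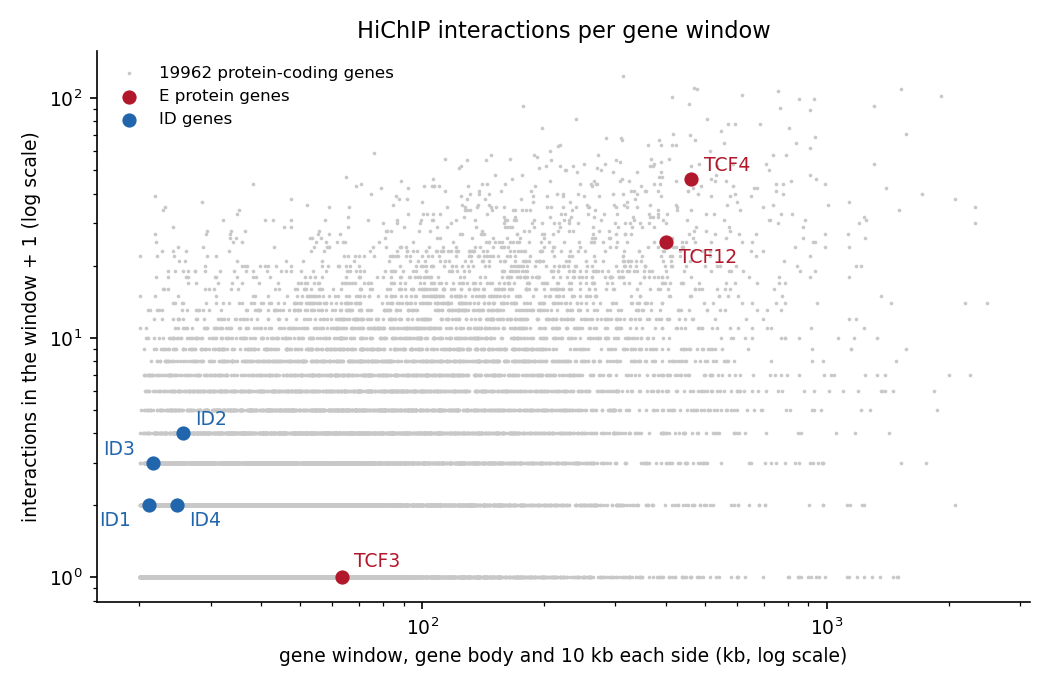
Interactions per gene window (number + 1, log scale) against the length of the window in kb (log scale) for 19962 protein-coding genes in grey, the E protein genes in red and the ID genes in blue. TCF4 and TCF12 sit in the upper right with 45 and 24 interactions, the ID genes at the left with 1 to 3, and TCF3 on the lowest line with 0.

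TCF4 encodes the E protein that is needed for plasmacytoid dendritic cells and that is also expressed in B cell precursors. The gene lies on chr18:55222185-55664787 on the minus strand, and its 93 annotated transcripts start in 20 different 5-kb bins. Its 45 interactions had contact counts from 13 to 65 with a median of 28, over distances from 50 kb to 2480 kb with a median of 215 kb. In 15 of them both bins lay in the TCF4 window, and in 30 the other bin lay outside. A q-value under 1e-05 was reached by 29 of the 45, against 66.5% of all interactions. Of the 45, 7 were the retained pair of a merged group of neighboring pairs, against 7.69% in the whole list.

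The interactions of TCF4 converged on a pair of adjacent bins inside the gene. The bin chr18:55515001-55520000, about 147 kb downstream of the annotated start, had 12 interactions with contact counts from 19 to 65. The bin next to it, chr18:55510001-55515000, holds an internal TCF4 transcription start and had 7, with contact counts from 15 to 65. Together they accounted for 19 of the 45 interactions, and in those 19 the median contact count was 30, against 25 in the remaining 26. The first bin holds 2 HLF motifs and the second 1, printed above, and each holds 1 E-box (CAGGTG or CACCTG), where the median anchor bin in the list holds 4. Of all 53535 anchor bins in the list, 2.1% had 10 or more interactions, as did 2 of the 53 anchor bins in the 7 windows, this TCF4 bin and a TCF12 bin described below.

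The strongest contacts of TCF4 were short and lay inside the gene body. The pair chr18:55435001-55440000 and chr18:55515001-55520000, 80 kb apart, had 65 contacts (50.2 to 82.8) and a q-value of 1.05e-30, and its merged group held 133 contacts in all. The pair chr18:55445001-55450000 and chr18:55510001-55515000, 65 kb apart, also had a contact count of 65, with the smallest q-value of TCF4 at 2.32e-33. At their distances these counts were 2.41 and 2.5 times the median of all interactions, and each ranked 22, among 874 and 989 interactions respectively. The 3 next pairs of the same hub had 46, 40 and 37 contacts at 60, 115 and 50 kb. A contact count of 37 was also found between chr18:55480001-55485000 and the start-site bin chr18:55550001-55555000, 70 kb apart. In all of these pairs both bins lay within the gene body.

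A start site of TCF4 lay in a bin of 18 of its 45 interactions, and 9 of its 20 start-site bins took part. Among protein-coding genes, 26.6% had any interaction from a bin with a start site of their own. That is a share of genes, not of interactions. The internal start in chr18:55510001-55515000 had 7 interactions, that in chr18:55550001-55555000 had 4 (26 to 37 contacts), that in chr18:55590001-55595000 had 2 (14 and 19 contacts), and the other 6 bins had 1 each, with 28 to 40 contacts.

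Outside the gene, TCF4 contacted mainly its upstream flank. Of the 30 interactions that left the window, 28 ended upstream of the annotated start and 2 downstream. Of the 28, 12 shared the bin chr18:55775001-55780000, which lies 113 kb upstream in LINC01415, a long noncoding RNA gene. That bin had 15 interactions in all, and none of its interactions ran past TCF4 to the other side. Its 12 TCF4 partners had 14 to 33 contacts, with a median of 28, and they were spread from the 5′ part of the gene to its 3′ end. The strongest reached chr18:55410001-55415000, 365 kb away, with 33 contacts (22.7 to 46.3; q-value of 6.51e-14). This upstream bin holds 0 HLF motifs, and 4 of its 12 TCF4 interactions had a motif in the other bin. The bin next to it, chr18:55780001-55785000, contacted the start-site bin chr18:55550001-55555000 with 35 contacts at 230 kb.

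A further upstream bin, chr18:55680001-55685000, was the anchor bin closest to the window without being in it, 15.2 kb from the gene. It had 8 interactions, 4 of them with TCF4 (18 to 26 contacts), and it holds the pair of upstream motifs printed above. The next anchor bin outward lay 25.2 kb from the gene with 4 interactions. Just inside the limit of 10 kb, a bin 2.19 kb beyond the 3′ end had 1 interaction, with 13 contacts.

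**Figure D2:**
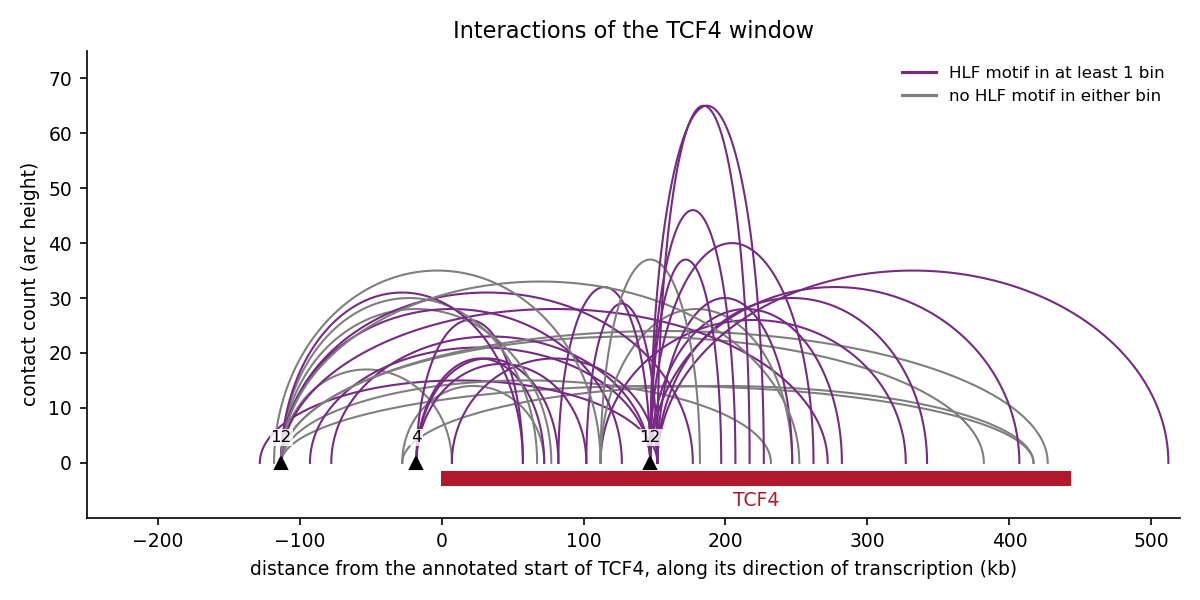
Interactions of the TCF4 window as arcs between bin centers, by distance from the annotated TCF4 start along its direction of transcription (kb), with the contact count as the height of the arc. The 38 interactions with both bins in the plotted range are drawn and 7 that reach further are not. Purple arcs have an HLF motif in at least 1 bin, grey arcs have none, and triangles mark the internal hub with 12 interactions and the upstream bins with 12 and 4. The highest arcs, at 65 contacts, stand on the internal hub.

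Of the TCF4 interactions, 5 were longer than 1 Mb, against 13.7% of all interactions. The internal hub contacted a bin at the start of ATP8B1, a phospholipid flippase gene, over 2285 kb with 25 contacts, a bin in an intron of DCC, a netrin receptor gene, over 2480 kb with 19 contacts, and an intergenic bin 62.2 kb from the closest protein-coding gene, TXNL1, over 1015 kb with 25 contacts. A bin in the 3′ part of TCF4, chr18:55245001-55250000, contacted an intron of WDR7 over 1495 kb with 31 contacts (21.1 to 44). The bin chr18:56575001-56580000 near TXNL1 had 3 interactions with TCF4, of 13 to 16 contacts, at 935, 1000 and 1360 kb.

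TCF12 encodes the E protein also called HEB, a partner of TCF3 in thymocytes and B cell precursors. It lies on chr15:56918623-57299281 on the plus strand. Its 24 interactions had contact counts from 14 to 64 with a median of 26, over 75 kb to 2660 kb with a median of 262.5 kb. Both bins lay in the window in 11 and 1 bin in 13, and 17 of the 24 had a q-value under 1e-05. None of the 24 was a merged group, and none used a bin with an annotated TCF12 start.

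The interactions of TCF12 converged on its ends. The bin chr15:56920001-56925000 begins 1.38 kb after the annotated start and had 14 interactions with 14 to 64 contacts, while the bin that holds the start itself had 0. The bin chr15:57300001-57305000 begins 0.72 kb past the 3′ end, in the noncoding gene LINC00926, and had 7 interactions with 16 to 31 contacts. One or the other took part in 21 of the 24 interactions. The list has no interaction between these bins, which are 380 kb apart. The 5′ bin holds 1 HLF motif, printed above, 4.36 kb from the start, and 4 E-boxes. The 3′ bin holds 0 HLF motifs and 2 E-boxes.

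The strongest contact of TCF12 linked its 5′ bin to chr15:56490001-56495000, an intergenic bin 430 kb away whose closest protein-coding gene, MNS1, lay 24.9 kb from it. It had 64 contacts (49.3 to 81.7) and a q-value of 3.64e-42, the smallest of the 83 interactions. This was 2.67 times the median at that distance and ranked 2 among 190 interactions. The other 5 upstream partners of the 5′ bin had fewer contacts. An intron of RFX7, a transcription factor gene, had 28 at 740 kb, a bin at the start of ZNF280D 16 at 275 kb, a bin at the start of MNS1 16 at 455 kb, and the remaining pair 22 and 24 at 445 and 90 kb. The listed partners 15 and 25 kb from the bin with 64 contacts had 22 and 16 (13.8 to 33.3 and 9.15 to 26). These intervals understate the error, and the difference was not tested.

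Inside TCF12, the 5′ bin contacted 6 intronic bins with 20 to 33 contacts at 75 to 230 kb, the strongest being chr15:57035001-57040000 with 33 (22.7 to 46.3). The 3′ bin contacted 4 further bins inside the gene, 1 of them with an exon, with 17 to 31 contacts at 135 to 200 kb. A pair of intronic bins, chr15:56990001-56995000 and chr15:57265001-57270000, had 32 contacts at 275 kb, and the first of them holds the TTACGTAA site printed above. Downstream, the 3′ bin reached CGNL1 at 250 kb with 28 contacts and, as the longest interaction of TCF12, a bin 2660 kb away near FOXB1 with 25 contacts. An intronic bin reached chr15:58410001-58415000, where ALDH1A2 and LIPC overlap, over 1415 kb with 29 contacts. The 5′ bin reached LINC01413 at 405 kb with 26 contacts, and GCOM1 and MYZAP at 705 kb with 14, the lowest count of TCF12.

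**Figure D3:**
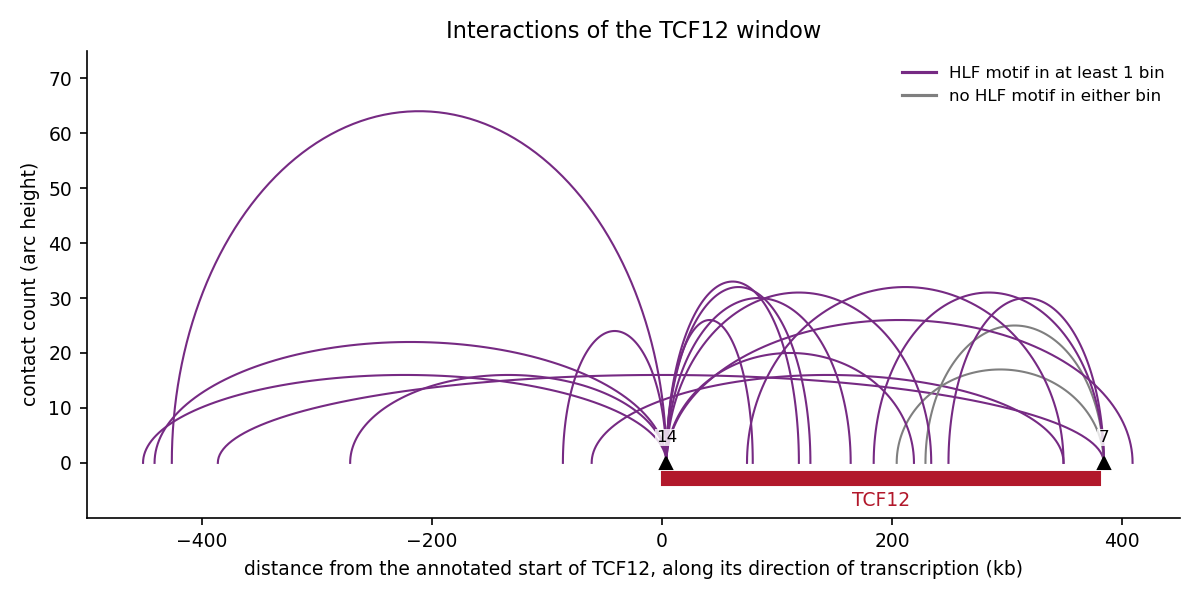
Interactions of the TCF12 window as arcs between bin centers, by distance from the annotated TCF12 start (kb), with the contact count as the height of the arc. The 19 interactions in the plotted range are drawn and 5 longer ones are not. Triangles mark the 5′ bin with 14 interactions and the bin past the 3′ end with 7, and the arc of 64 contacts rises from the 5′ bin to a bin 430 kb upstream.

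TCF3, the gene whose 5′ part forms the fusion, lies on chr19:1609291-1652615 on the minus strand and had 0 interactions. This was not rare for its length, as 28.2% of 3224 genes like it in length had 0 and their median was 2. It lay in a stretch of 305 kb without any anchor bin. The nearest on the telomeric side, chr19:1450001-1455000, was 154 kb from the gene with 1 interaction of 22 contacts, and the nearest on the other side, chr19:1760001-1765000, was 107 kb away with 1 interaction of 24 contacts. The stretch without anchors wholly contained 10 protein-coding genes and ranked 22 among 838 gaps between anchor bins on chromosome 19, whose median was 30 kb.

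A total of 7 interactions passed over TCF3, with 12 to 33 contacts at distances from 365 kb to 2610 kb. The strongest joined an intron of SBNO2 to a bin at MKNK2, a kinase gene, with 33 contacts at 910 kb (22.7 to 46.3; q-value of 8.45e-16). A second interaction ended in the same MKNK2 bin and joined it to CNN2 with 24 contacts at 1015 kb. APC2 was joined to a bin with the start of ATP8B3 with 30 contacts at 365 kb, the shortest of the group, and from the next bin to a site near ABHD17A with 22 contacts at 420 kb. STK11, a tumor suppressor kinase gene, was joined to that same site with 12 contacts at 680 kb, the lowest count at its distance among 95 interactions. A bin near GZMM was joined to one near GNA15 with 26 contacts at 2610 kb, and GPX4 to PIP5K1C with 22 at 2585 kb. At positions every 20 kb over the first 24 Mb of chromosome 19, the median number of spanning interactions was 6 (interquartile range, 3 to 8), and 59.3% of 1199 positions had fewer than 7. The number over TCF3 was thus within the interquartile range of the chromosome arm.

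The 4 ID genes are short, and their 7 interactions had 15 to 30 contacts. Among genes like them in length, 57.1% to 60.7% had 0 interactions. Of the 7, 6 had fewer contacts than the median at their distance, and 1, of ID3, had more.

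ID2, which encodes the inhibitor needed for innate lymphoid cells, lies on chr2:8678845-8684461 and had 3 interactions, all to its upstream side. The start-site bin chr2:8680001-8685000 contacted chr2:8595001-8600000 at 85 kb with 24 contacts (15.4 to 35.7; q-value of 2.47e-07). The bin chr2:8680001-8685000 also holds the RefSeq promoter of ID2, chr2:8681806-8682105. The start-site bin chr2:8675001-8680000 contacted chr2:8545001-8550000 in LINC01814 at 130 kb with 17 contacts (q-value of 8.49e-03). It holds the motif printed above, 1.06 kb before the GENCODE gene start, in the antisense gene ID2-AS1. A bin just upstream contacted chr2:8595001-8600000 at 75 kb with 15 contacts (q-value of 6.93e-03), and its interval, 8.4 to 24.7, lay below the median of 26 at that distance. The upstream bins were themselves busy, with 9 and 13 interactions, of which 3 and 1 ran past ID2 to the other side. In all, 15 interactions passed over the ID2 window, against 11 over that of ID3, 5 over ID4 and 3 over ID1. The number at other positions of chromosome 2 was not counted.

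ID3, an inhibitor induced by antigen receptor and transforming growth factor beta signaling, lies on chr1:23557926-23559501. A bin beside it contacted chr1:23375001-23380000, 0.909 kb from the edge of TCEA3, at 175 kb with 30 contacts (20.2 to 42.8; q-value of 9.44e-11), which was 1.22 times the median at that distance. A bin on its other side contacted an intron of CNR2, the cannabinoid receptor gene of immune cells, at 345 kb with 19 contacts (11.4 to 29.7; q-value of 1.45e-05). Both distal bins hold an HLF motif and the bins beside ID3 hold none. The nearest anchor bins just outside the window, 15.5 and 20.5 kb from the gene, had 1 interaction each with 32 and 41 contacts.

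ID1, a target of bone morphogenetic protein signaling, lies on chr20:31605283-31606515. Its interaction joined a bin 3.49 kb past its end to an exon of HM13 at 50 kb, the shortest distance in the list, with 26 contacts (17 to 38.1; q-value of 6.36e-10). ID4, on chr6:19837370-19842197, was joined to an intron of MBOAT1 at 330 kb with 19 contacts (11.4 to 29.7; q-value of 8.79e-05). Neither had an HLF motif in its bins.

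**Figure D4:**
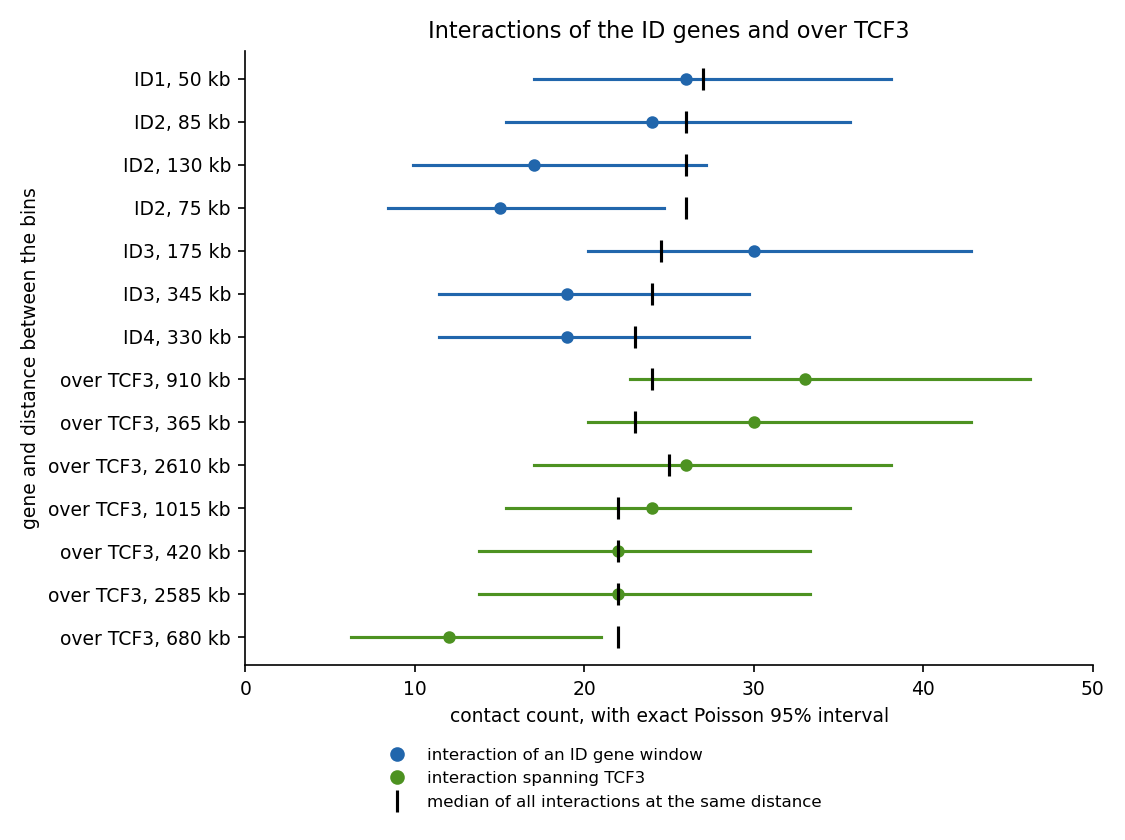
Contact counts of the 7 interactions of ID genes (blue) and the 7 that span TCF3 (green), with exact Poisson 95% intervals and, as black ticks, the median of all interactions at the same distance. Most intervals include the tick, and those of ID2 at 75 kb and over TCF3 at 680 kb lie below it.

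An HLF motif was present in at least 1 bin of 52 of the 76 interactions in gene windows, 68.4% (Wilson 95% interval, 57.3 to 77.8), and in 66.8% of all interactions. The share was 62.2% (47.6 to 74.9) for TCF4 and 87.5% (69 to 95.7) for TCF12, with interactions that share a bin counted each time. Wilson intervals treat interactions as independent, so with shared bins they are too narrow, and no difference from the whole list was tested. Without the 5′ bin, 7 of the other 10 TCF12 interactions held a motif, and without the internal pair of bins 9 of the other 26 TCF4 interactions did. Of the 97 different bins in the 83 interactions, 28 held a motif, 28.9% (20.8 to 38.6), and of all anchor bins 31.5% did. Among anchor bins with 10 or more interactions the share was 66.7%. Of the interactions spanning TCF3, 2 of 7 had a motif. The median number of E-boxes per bin, distal bins included, was 11.5 for ID1 (2 bins), 7 for ID2 (5), 9 for ID3 (4) and 3.5 for ID4 (2). It was 11 for the 12 bins of interactions spanning TCF3, which lie outside that gene. For TCF4 (45 bins) and TCF12 (27 bins) it was 3 each. Over all anchor bins the median was 4 and the 90th percentile 9. The ID medians rest on few bins, and the part of GC content was not tested. In the 20 RefSeq promoters of the 7 genes (GRCh38.p14, 250 bases before to 50 after a start), 0 held either word of the HLF motif and 0 held the E-box, and 1.01% and 20.6% of 35116 promoters did.

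Contact counts exceeded the median of all interactions at the same distance in 41 of the 76, and in 47.6% of the whole list. A count of at least 2 times that median was found in 3 of the 76, the pair of TCF4 contacts with 65 and the TCF12 contact with 64, and in 3.2% of the whole list. None of the 83 had the highest count at its distance.

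**Figure D5:**
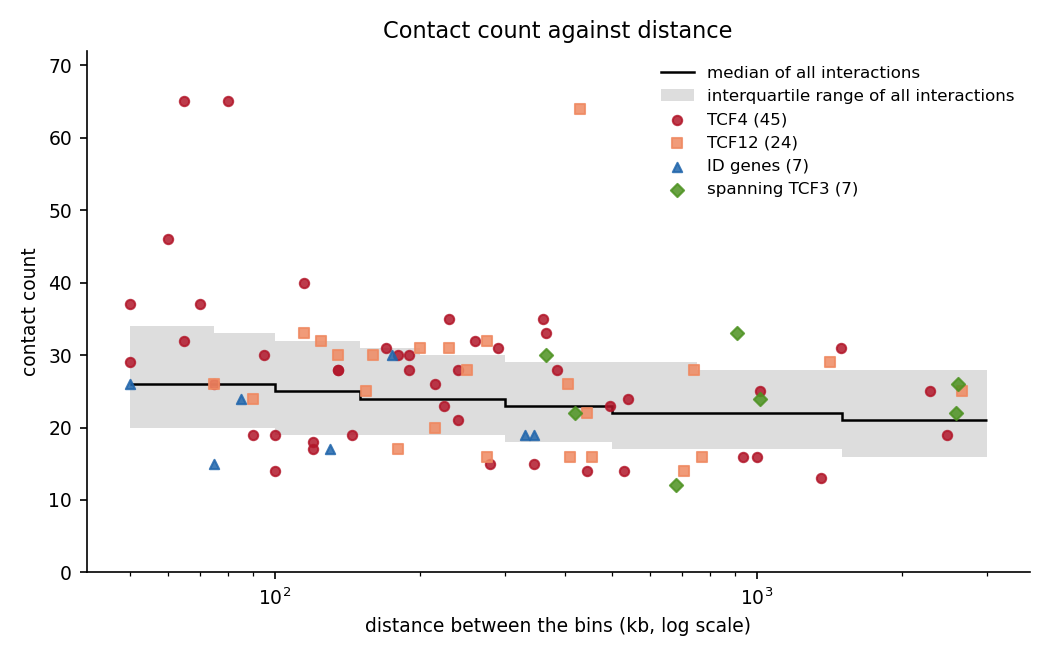
Contact count against the distance between bins (kb, log scale) for the interactions of TCF4 (45), TCF12 (24) and the ID genes (7) and those spanning TCF3 (7). The black line is the median and the grey band the interquartile range of all 49245 interactions by distance. The points at 64 and 65 stand above the band, and most others lie in it or near its edges.

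Genes of the same pathway were counted in the same way. Of 40 class II basic helix-loop-helix genes, whose products pair with E proteins, 19 had at least 1 interaction (47.5%, against 64.5% of all protein-coding genes) and 0 had 10 or more. Their windows were short, with a median of 23.3 kb, so all protein-coding genes are not a reference of like length. Among genes like the ID genes in length, with windows of 21.2 to 25.6 kb, 57.1% to 60.7% had 0 interactions. LYL1, an oncogene in T cell leukemia, had 6 interactions, 4 of them from a start-site bin, with up to 37 contacts. OLIG1 had 6, with up to 26 contacts, and TWIST2 had 4, with up to 20. TAL1, which is activated in T cell leukemia, had 0. Of 12 cofactor genes, 10 had an interaction (83.3%), and 5 had 10 or more, as did 10.1% of all protein-coding genes. Their windows were longer than those of the class II genes, with a median of 128 kb, and the part of length in these counts was not tested. The histone acetyltransferase gene CREBBP had 22, 11 of them from a start-site bin, with up to 67 contacts, and its paralog EP300 had 10. The corepressor gene CBFA2T2 had 22 with up to 37 contacts, its relative CBFA2T3 had 11 with up to 42, and SSBP2, whose product stabilizes LDB1 complexes, had 13 with up to 42. LMO2, the adaptor between TAL1 and LDB1, had 3 with up to 38 contacts, and LMO1 and LDB1 had 0.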

How the data were processed

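The authors removed low-quality sequence with Trim Galore 0.6.6, combined both replicates, aligned to hg38 (BWA-MEM) and took pairs from pairtools without removing duplicates. MACS2 peaks served as reference for FitHiChIP, which listed pairs of 5-kb bins 50 kb to 3 Mb apart at a q-value under 0.01 and merged neighboring ones. The version of FitHiChIP is not given in the sources used here. The deposited contact counts are read pairs without normalization, and sumCC adds these counts over a merged group. The deposited p-values and q-values come from the caller's background for distance and coverage. A further deposited column, a fraction, states how much of each merged group was significant.

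The members and gene lists were chosen with earlier results of these data known. Every member is described, with all interactions where there were 5 or fewer, and otherwise those with the 5 largest contact counts, the smallest q-value, the longest distance and a start-site bin. From each pathway list the 3 genes with the most interactions are named, together with TAL1, LYL1 and LMO2; EP300, CBFA2T3, LMO1 and LDB1 were added after their values were seen. The TCF4 and TCF12 bins described as converging points follow from their number of interactions, and the windows of DNA around motifs were chosen after values were seen. Windows, overlaps, motifs, exact Poisson and Wilson intervals were computed with Python 3.11.15, pandas 2.3.3, scipy 1.17.1 and pyfaidx 0.9.0.4. The overlap, spanning and motif steps were tested on simulated data, and the intervals were not. Positions are 1-based. Genes come from GENCODE release 44 and promoters from RefSeq (GRCh38.p14). Genes of like length had windows within 20%. Alternatives were a q-value under 1e-05, 20 or more contacts, a limit of 1 Mb, the gene body alone, 50 kb around it, merged bin ranges, TTACGTAA alone, start sites within 10 kb of a bin and other rankings.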

Additional observations from a re-analysis of the deposited data

How the results depend on the processing

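TCF3 had 0 interactions under every alternative. Except with merged bin ranges, this was fixed in advance, as stricter settings only remove interactions and the nearest anchor bin was 107 kb away. The number for TCF12 stayed within 1.5 times of 24 under each alternative. With a q-value under 1e-05, TCF4 had 29, ID2 1, ID3 1 and ID4 0. With a contact count of at least 20, ID2 had 1, ID3 1 and ID4 0. With the gene body alone, ID1 and ID3 had 0 each, and with 50 kb around the gene ID1 had 3, ID2 6 and ID3 5. Up to 1 Mb, 4 interactions spanned TCF3. With TTACGTAA alone, the share of interactions with a motif was 1.32%, and the share over all interactions is not given for this word. Interactions with a start site within 10 kb of a bin numbered 65, against 20 with a start site in the bin. Each of these follows from which interactions, bins or motif words the alternative keeps. Of 54 such values, 39 stayed within 1.5 times, or for the share within its interval. These 39 include values that could not change, such as those of TCF3. The strongest interaction was unchanged in 11 of 12 rankings, the exception being TCF4. Many of these rankings could not differ. TCF12 and the ID genes had 0 merged groups, so their summed counts equaled their contact counts, and ID1 and ID4 had 1 interaction each.

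No paired analysis was possible because both replicates were merged into 1 list, and for the same reason no value without replicate 1 or replicate 2 is given. The comparison with the caller's expected contact count was not run, as the list used here has no such column. The Poisson intervals of contact counts from 13 to 30 overlap. Overlap alone does not settle whether such counts differ, and they were not tested against each other.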
